A study of Mus musculus with 21 samples.

Results

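RNA-seq of midbrain tissue was compared between 3 mice given vehicle and then MPTP and 3 control mice given vehicle throughout, in the experiment designed for irisin pre-treatment. These 6 samples were chosen by their labels out of 21 samples of the series, and the comparison covered the 22641 genes, of 33829 listed, that passed a filter on low counts. All mice were wild-type C57BL/6 males of 6 weeks by the labels, and all agents were injected intraperitoneally. Control mice had received ddH2O for 10 days. MPTP mice had received ddH2O for 5 days, followed by 5 days of MPTP at 30 mg/kg per day. A group of 3 mice that received irisin at 200 μg/kg per day for 5 days before the same MPTP course entered the fit to help estimate the spread, and its values are given beside those of the compared groups. In the delayed experiment, which had its own 3 control mice with 10 days of ddH2O, the order was turned round, with 5 days of MPTP first and 5 days of ddH2O after it. Its other groups, of 3 mice each, were given ddH2O and then irisin alone, or MPTP and then irisin, in courses of 5 days at the same doses, and their values are given for the genes past the threshold. The labels call the tissue midbrain, and the study's methods describe nigral tissue taken by hand after perfusion. The labels number the samples of a group without saying how many mice each one holds, so the p-values measure the spread between these samples, each of which is called a mouse here.

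MPTP is a lipophilic toxin that enters the brain, where monoamine oxidase B in glia turns it into MPP+. The dopamine transporter carries MPP+ into dopaminergic neurons, in which it blocks complex I of the mitochondrial respiratory chain. Dopaminergic neurons of the substantia nigra are therefore the classical target, and midbrain tissue also holds serotonergic, GABAergic and glutamatergic neurons, glia and vessels. In bulk tissue, fewer cells of a type and less RNA per cell cannot be told apart.

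Control mice had 66.7 to 69.8 M (mega) counted reads each and MPTP mice had 68.8 to 75.6 M reads. Levels are given as CPM, counts-per-million after TMM (trimmed mean of M values) scaling. The 13 markers of dopaminergic neurons were all measured and summed to 626 to 955 CPM in control mice and 644 to 992 CPM in MPTP mice, and markers of GABAergic neurons, glutamatergic neurons, astrocytes, oligodendrocytes and endothelial cells were likewise present in every mouse. MPTP mouse 2 stood apart from the other mice. Its 5 choroid plexus markers summed to 1640 CPM, while the control mice had 9.99 to 13.9 CPM and the lowest MPTP mouse had 11.1 CPM. Transthyretin (Ttr), the main secreted protein of the choroid plexus, was at 2.86, 7.26 and 6.12 CPM in control mice and at 3.51, 1539 and 5.03 CPM in MPTP mice. The same mouse had the highest Tph2, the serotonin-synthesizing enzyme, with 171 CPM against 22.6 and 45.3 CPM in the other MPTP mice and 11.98 to 72.1 CPM in control mice. The part of these differences in the results was not tested, and values without MPTP mouse 2 are given where leaving it out moved a list or a single gene most.

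After MPTP, 5 of 22641 genes passed an adjusted p of 0.05 in the quasi-likelihood test of edgeR, with p-values adjusted by Benjamini-Hochberg, which is 0.0221% of the genes tested. In direction, 4 rose, among them Snrnp35, Klf4 and Mxd4, and 1, Isca1, fell. At an unadjusted p under 0.05, 760 genes (3.36%) were higher and 605 genes (2.67%) were lower with MPTP. All 3 MPTP mice lay above all 3 control mice in 5.71% of the genes and below them in 5.93%. The median log2 fold change over all genes was -0.0018, with the quartiles at -0.15 and 0.16, and 49.6% of the genes had a log2 fold change above 0.

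**Figure D1:**
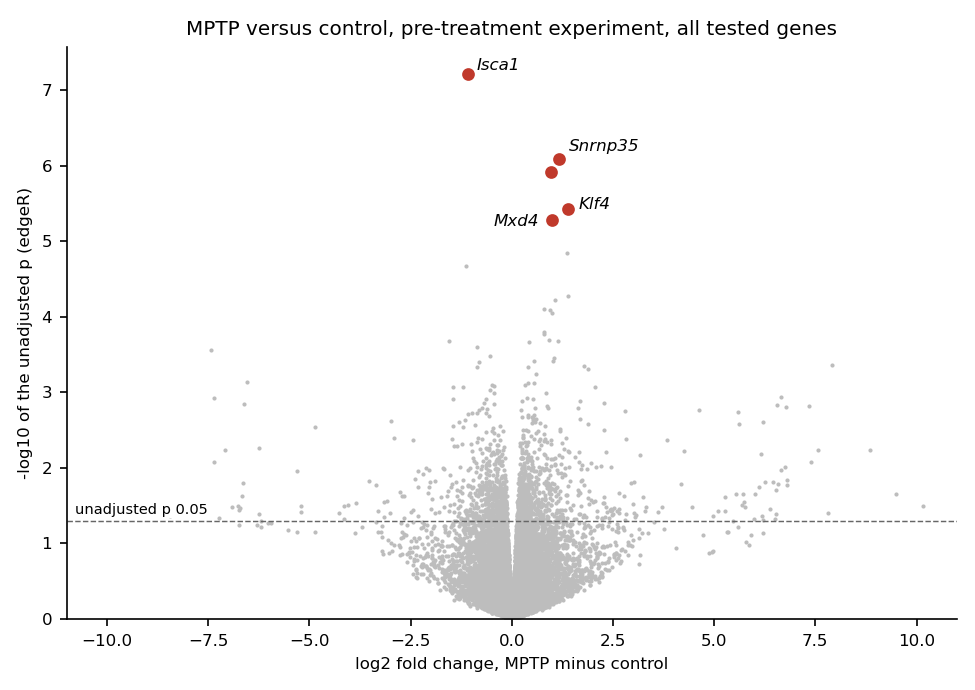
Each point is 1 of the 22641 tested genes, with the log2 fold change of MPTP minus control on the x axis and -log10 of the unadjusted p on the y axis; red points passed an adjusted p of 0.05. The 5 red points stand above the rest, 4 to the right and Isca1 to the left, and the gene with the lowest p of all is Isca1.

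Isca1, which encodes a protein of mitochondrial iron-sulfur cluster assembly, had the lowest p (ENSMUSG00000044792; chromosome 13, 59755409 to 59769810, minus strand, in GRCm38 coordinates as deposited, like those that follow). It was at 184, 172 and 166 CPM in control mice and at 79.4, 85.7 and 82.4 CPM in MPTP mice. Every MPTP mouse lay far below every control mouse, and the 3 mice given irisin before MPTP were at control level with 168, 153 and 163 CPM. Isca1 fell by 1.08 on the log2 scale (standard error 0.06; edgeR adjusted p = 0.0014). Within groups of the delayed experiment the same gene had 2 separate levels. There, 4 of 12 mice were at 65.9 to 77.5 CPM, which were control mice 1 and 2, mouse 3 of irisin alone and MPTP mouse 2, while the other 8 mice were at 169 to 201 CPM. Its log2 fold change with MPTP in that experiment was 0.49 (standard error 0.44; edgeR adjusted p = 0.83). Exons of Isca1 overlap exons of Gm49354 on the same strand and of Etohd2 on the other strand, and the use of strand in the counting is not given in the sources used here.

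Snrnp35 encodes a protein of the U11/U12 small nuclear ribonucleoprotein of the minor spliceosome (ENSMUSG00000029402; chromosome 5, 124483134 to 124491124, plus strand). It was at 7.11, 7.18 and 6.83 CPM in control mice and at 15.2, 16.7 and 15.3 CPM in MPTP mice. The groups did not overlap, and mice given irisin before MPTP were at control level with 6.66 to 7.45 CPM. Snrnp35 rose by 1.16 on the log2 scale (standard error 0.09; edgeR adjusted p = 0.00904). Of the 12 mice of the delayed experiment, 6 had 6.76 to 9.28 CPM and 6 had 12.6 to 16.1 CPM, and each of its 4 groups had mice on both sides of this gap.

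Klf4 encodes a zinc finger transcription factor that is an early response gene in many cells and is known in endothelium (ENSMUSG00000003032; chromosome 4, 55527143 to 55532466, minus strand). Its level was 5.62, 6.30 and 7.23 CPM in control mice and 16.003, 17.1 and 17.2 CPM in MPTP mice. All 3 MPTP mice were high and close to each other, and the 3 mice with irisin before MPTP were the lowest of the experiment with 4.52, 3.52 and 4.27 CPM. Klf4 rose by 1.39 on the log2 scale (standard error 0.14; edgeR adjusted p = 0.0211). In the delayed experiment, control mice had 11.6, 8.02 and 14.5 CPM, and mice with irisin alone had 13.8, 21.5 and 14.96 CPM. MPTP mice there had 9.46, 8.92 and 8.02 CPM, and mice with MPTP and then irisin had 9.58, 11.1 and 16.8 CPM. Mouse 2 of irisin alone, which had no MPTP, thus lay above all 3 MPTP mice of the pre-treatment experiment. The call was lost when control mouse 2, MPTP mouse 1, MPTP mouse 3 or mouse 3 of irisin and MPTP was left out, with an adjusted p of at most 0.067.

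Mxd4 encodes a repressor of the MAX network that opposes MYC (ENSMUSG00000037235; chromosome 5, 34173883 to 34187710, minus strand). Control mice had 41.7, 49.6 and 43.0 CPM and MPTP mice had 91.0, 87.2 and 88.2 CPM. The groups were far apart, with 60.02, 47.6 and 54.7 CPM after irisin and MPTP. Mxd4 rose by 0.99 on the log2 scale (standard error 0.10; edgeR adjusted p = 0.0236). In the delayed experiment, 4 of 12 mice, taken from the groups with irisin alone, MPTP, and MPTP with irisin, had 84.8 to 91.2 CPM and the other 8 had 46.8 to 61.8 CPM. The call was lost when control mouse 1, control mouse 3, MPTP mouse 1, MPTP mouse 3 or mouse 3 of irisin and MPTP was left out, with an adjusted p of at most 0.112.

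**Figure D2:**
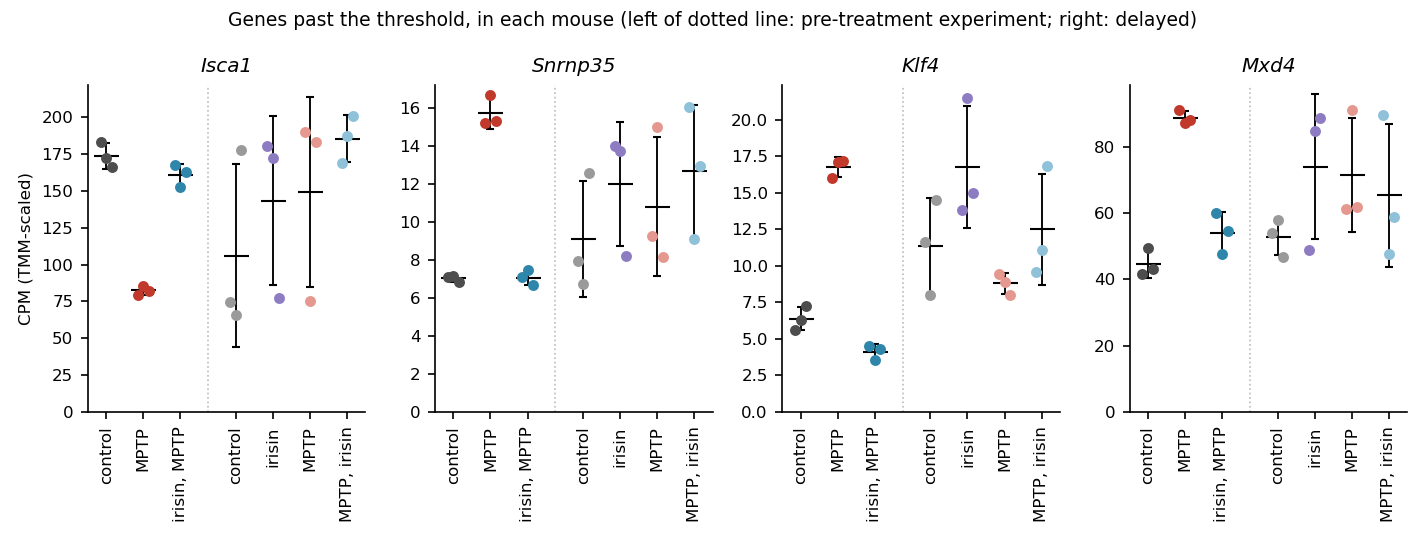
CPM of Isca1, Snrnp35, Klf4 and Mxd4 in each mouse, by group, with the pre-treatment experiment left and the delayed experiment right of the dotted line; bars are the mean ± SD of 3 mice. The 3 MPTP mice of the pre-treatment experiment stand apart from the 3 control mice for each gene, and Isca1, Snrnp35 and Mxd4 have mice at 2 levels within groups of the delayed experiment.

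Further genes, which did not pass, fill each direction to 5 by the lowest p among genes without overlap. Over all genes tested, Ptger1, Nkx2-2 and Zfp957 ranked 17, 19 and 20 by p. Gtf2ird2, a general transcription factor II-I repeat gene, was at 7.19, 6.11 and 6.84 CPM in control mice and at 18.1, 18.9 and 14.5 CPM in MPTP mice (log2 fold change 1.35, edgeR adjusted p = 0.0535). Rps6-ps4, a processed pseudogene of ribosomal protein S6, was at 53.7, 45.4 and 46.7 CPM against 20.8, 23.3 and 22.8 CPM (log2 fold change -1.12, edgeR adjusted p = 0.068). Both resemble other genes closely enough that reads may be shared with those copies. Ptger1, a prostaglandin E2 receptor, was at 5.10, 4.68 and 3.80 CPM in control mice and at 1.40, 1.13 and 2.06 CPM in MPTP mice. Nkx2-2, a transcription factor of the oligodendrocyte lineage, was at 10.2, 7.88 and 8.05 CPM against 5.28, 4.43 and 4.70 CPM. In all 4 of these genes the groups did not overlap, which was a condition for naming them here. In the delayed experiment, Gtf2ird2 was at 9.11, 7.31 and 7.38 CPM in control mice and at 17.7, 15.9 and 14.2 CPM in MPTP mice (log2 fold change 1.005, edgeR adjusted p = 0.262). Rps6-ps4, Ptger1 and Nkx2-2 had log2 fold changes of 0.26, 0.01 and 0.0011 there. Zfp957 had 20, 24 and 18 counts in control mice and 0 counts in each MPTP mouse, and with a floor of 3 counts per library it was at least 7.21-fold lower.

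Immediate early genes are switched on within minutes to hours of a stimulus by kinase signaling. Of 34 tested members, Klf4 passed, 9 were higher and 1 was lower at an unadjusted p under 0.05, and 24 of 34 had a log2 fold change above 0. This list, like those below, was chosen with earlier results of these data known, so its counts are a description and no test. Over all genes tested, 3.36% were higher, 2.67% were lower and 49.6% were above 0, and the counts of each list below stand beside these shares. No such shares are given for the fits without MPTP mouse 2 or of the delayed experiment. The median log2 fold change of the 34 members was 0.20. The members with the lowest p besides Klf4, named after their values were seen, were Apold1, Klf2, Atf3 and Ccn1. Apold1, a vascular early response gene, was at 9.55, 11.9 and 12.3 CPM in control mice and at 36.3, 29.3 and 22.6 CPM in MPTP mice (log2 fold change 1.39, edgeR adjusted p = 0.149). Klf2, a transcription factor of endothelial cells under flow, was at 12.4, 12.04 and 13.3 CPM against 29.3, 27.3 and 22.7 CPM (log2 fold change 1.07, edgeR adjusted p = 0.149). In both genes every MPTP mouse lay above every control mouse, and the mice with irisin before MPTP were the lowest, at 2.62 to 3.46 CPM of Apold1 and 4.45 to 6.17 CPM of Klf2. Atf3, a stress-induced transcription factor, was at 1.10, 1.83 and 1.58 CPM against 4.35, 6.30 and 4.85 CPM (log2 fold change 1.78, edgeR adjusted p = 0.362). Ccn1, a secreted matrix protein, was at 2.63, 5.99 and 6.74 CPM against 19.5, 19.3 and 10.4 CPM (log2 fold change 1.68, edgeR adjusted p = 0.576). Neither gene overlapped between the groups.

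Fos, Egr1 and Arc, members known to respond to neuronal activity, are given as single genes. Fos was at 34.4, 21.3 and 33.5 CPM in control mice and at 29.3, 31.5 and 28.4 CPM in MPTP mice, and Egr1 was at 78.2, 31.7 and 64.8 CPM against 61.1, 31.9 and 49.4 CPM. The groups overlapped in both genes. Arc, a synaptic activity gene, was at 28.9, 22.6 and 21.2 CPM against 17.0, 18.8 and 21.8 CPM (log2 fold change -0.34, unadjusted p = 0.0456). Jund, the member with the highest FPKM (fragments-per-kilobase-per-million, a level per length), had a log2 fold change of -0.08. The 5 markers of endothelial cells summed to 131 to 151 CPM in control mice and 135 to 147 CPM in MPTP mice, so the level of these markers overlapped between the groups. Without MPTP mouse 2, 8 members were higher and 0 were lower at an unadjusted p under 0.05, and 21 of 34 were above 0.

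The promoters of 3 of these transcription factor genes are shown because Klf4 is the called member and because Klf2 and Atf3 hold a MEF2 element. Each line gives 150 bases that end at the base before the RefSeq start site in GRCm38.p6, 5′ to 3′ on the strand of the gene, with MEF2 elements in capitals. Klf4 lies on chr4:55532476-55532625, minus strand, Klf2 on chr8:72318912-72319061, plus strand, and Atf3 on chr1:191183334-191183483, minus strand.
Klf4: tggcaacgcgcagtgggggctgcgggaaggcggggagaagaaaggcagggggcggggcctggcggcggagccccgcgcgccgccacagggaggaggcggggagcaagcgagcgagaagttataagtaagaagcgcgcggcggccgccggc
Klf2: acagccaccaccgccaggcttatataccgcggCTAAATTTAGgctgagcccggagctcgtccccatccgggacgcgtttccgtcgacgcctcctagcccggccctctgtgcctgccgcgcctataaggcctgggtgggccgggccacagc
Atf3: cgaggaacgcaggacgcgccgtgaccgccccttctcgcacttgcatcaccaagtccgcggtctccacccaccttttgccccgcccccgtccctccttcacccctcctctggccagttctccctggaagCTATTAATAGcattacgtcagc
The MEF2 element was searched on both strands of the 300 bases around each start site. It was found in 3 of the 27 members with a RefSeq promoter, which were Klf2, Atf3 and Jun, and in 0.561% of the promoters of tested genes. The cyclic AMP response element (CRE), searched by its palindromic consensus, was found in 2 of the 27, which were Btg2 and Dusp1, against 2.87% of the promoters of tested genes. The serum response element (CArG box), searched by its consensus, was found in 1 of the 27, which was Dusp5, against 1.39%. A match is a description of the letters, and no match says only that they are not in this window.

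The delayed experiment allowed a test of whether the MPTP effect differed with the order of injections. Over 23364 genes measured in both experiments, 24 (0.103%) passed an adjusted p of 0.05 for the difference in edgeR's test, 10 with the higher log2 fold change in the pre-treatment experiment and 14 with the lower one. Taken alone, the delayed experiment had 29 of 21922 genes (0.132%) past the threshold, and 0 of them were among the 5 genes of the pre-treatment experiment. Of the 34 immediate early genes, 5 passed the test of the difference, which were Klf4, Apold1, Klf2, Ccn1 and Btg2, and each of them had the higher log2 fold change in the pre-treatment experiment. In the delayed experiment Apold1 was at 16.3, 14.2 and 37.5 CPM in control mice and at 4.11, 4.43 and 2.98 CPM in MPTP mice, so the groups stood apart in the opposite order. The difference in its log2 fold change was 3.93 (standard error 0.46; edgeR adjusted p = 0.000819). For Klf2 the difference was 1.598 (standard error 0.23; edgeR adjusted p = 0.00423). Apold1 and Klf2 passed whichever mouse was left out. The call of Klf4 held in 1 of these 12 fits, when control mouse 2 of the delayed experiment was left out, that of Ccn1 was lost without MPTP mouse 3 of the delayed experiment, and that of Btg2 without that mouse or without control mouse 1 of the pre-treatment experiment. The 2 experiments also differ in depth and in their control mice, and these cannot be told apart from the order of injections.

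**Figure D3:**
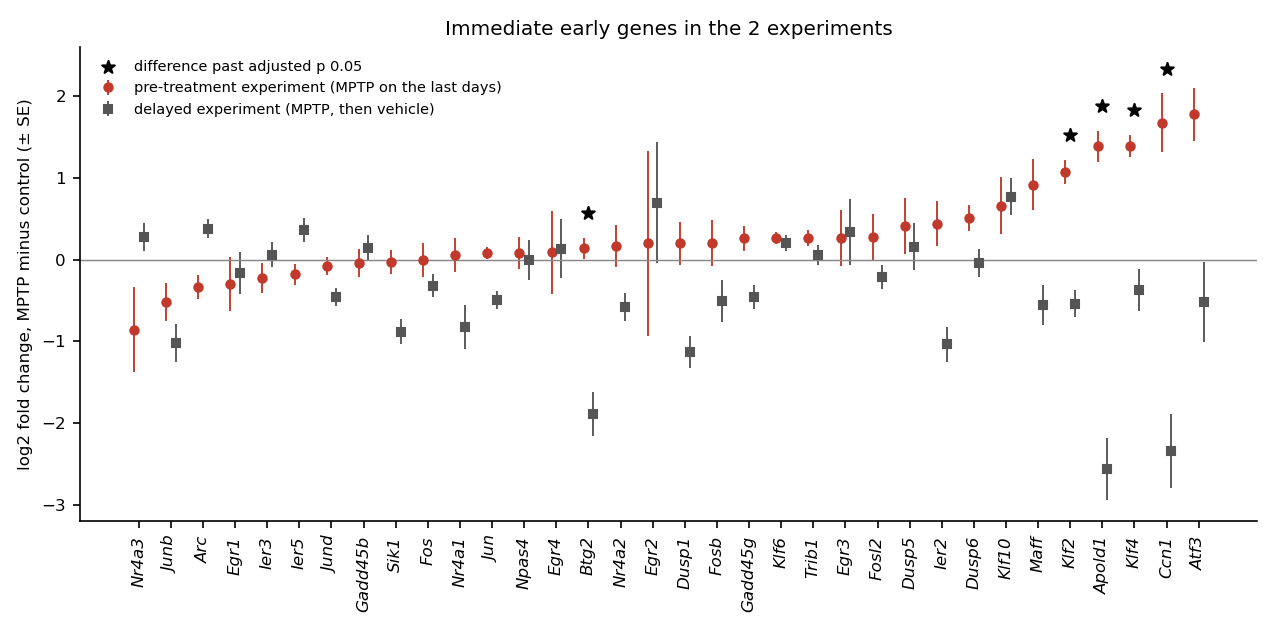
Log2 fold change of MPTP minus control with its standard error for the 34 immediate early genes, in the pre-treatment experiment (red) and the delayed experiment (grey squares); stars mark the 5 genes whose difference between experiments passed an adjusted p of 0.05. The starred genes sit above 0 in red and below 0 in grey, from Btg2 at 0.14 and -1.89 to Ccn1 at 1.68 and -2.34.

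Genes that the glucocorticoid receptor activates form a readout of stress hormones in brain tissue. None of 22 tested members passed, while 10 were higher and 0 were lower at an unadjusted p under 0.05 (3.36% and 2.67% of all genes), and 18 of 22 were above 0 (49.6% of all genes) with a median log2 fold change of 0.28. Hif3a, a hypoxia-inducible factor subunit, was at 6.28, 6.67 and 8.11 CPM in control mice and at 12.6, 14.7 and 13.1 CPM in MPTP mice (log2 fold change 0.94, edgeR adjusted p = 0.167). Plin4, a lipid droplet protein, was at 1.70, 1.73 and 4.28 CPM against 7.77, 13.5 and 10.6 CPM (log2 fold change 2.05, edgeR adjusted p = 0.485). Neither gene overlapped between the groups, and both were higher still in mice with irisin before MPTP, at 28.3 to 36.4 CPM of Hif3a and 49.3 to 92.4 CPM of Plin4. Control mice of the delayed experiment, without MPTP, had 17.4, 27.1 and 20.4 CPM of Hif3a and 49.9, 123 and 44.7 CPM of Plin4. They thus lay above all 3 MPTP mice of the pre-treatment experiment in both genes. MPTP mice of the delayed experiment had 17.2 to 20.7 CPM of Hif3a and 43.8 to 54.5 CPM of Plin4. Sgk1, a kinase of salt and stress responses and the member with the highest CPM among those with a low p, was at 169, 235 and 240 CPM against 307, 313 and 304 CPM (log2 fold change 0.52, edgeR adjusted p = 0.815). Zbtb16 (log2 fold change 1.19), Map3k6 (0.79) and Pdk4 (0.66) did not overlap between the groups either. These genes beyond Hif3a and Plin4 were named after their values were seen. Fkbp5 and Tsc22d3, 2 widely used reporters of the receptor, had groups that overlapped, with 21.02, 25.7 and 24.6 against 33.4, 12.8 and 36.9 CPM of Fkbp5. Mt2, the member of this list with the highest FPKM, had a log2 fold change of -0.13 with groups that overlapped. Without MPTP mouse 2, 9 members were higher at an unadjusted p under 0.05 and the median log2 fold change was 0.31. With MPTP first, in the delayed experiment, the median over the same 22 genes was -0.03.

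Chaperones of the endoplasmic reticulum fold secreted and membrane proteins and are induced together by the unfolded protein response. None of 18 tested members passed, 7 were higher and 0 were lower at an unadjusted p under 0.05, and 18 of 18 were above 0, where 49.6% of all genes were. The median log2 fold change was 0.18. Pdia4, a protein disulfide isomerase, was at 35.1, 31.9 and 33.3 CPM in control mice and at 40.8, 43.1 and 45.9 CPM in MPTP mice (log2 fold change 0.37, edgeR adjusted p = 0.57). Sdf2l1, a cofactor of the chaperone BiP, was at 5.32, 4.72 and 4.70 CPM against 7.28, 6.99 and 7.68 CPM (log2 fold change 0.57, edgeR adjusted p = 0.579). Hspa5, which encodes BiP itself, was at 243, 224 and 236 CPM against 299, 297 and 333 CPM (log2 fold change 0.40, edgeR adjusted p = 0.819). In these 3 genes all MPTP mice lay above all control mice. Calr (calreticulin), the member with the highest FPKM, had a log2 fold change of 0.13 with groups that overlapped, and the difference in Edem1 rested on MPTP mouse 1 with 20.9 CPM against 5.72 and 6.46 CPM in the other MPTP mice. Without MPTP mouse 2, 4 members were higher at an unadjusted p under 0.05 and 17 of 18 were above 0. With MPTP first, 9 of 18 were above 0. Genes of the integrated stress response, the other arm that raises Atf4 targets, did not share the direction. Of 20 tested members, 9 were above 0 and none had an unadjusted p under 0.05, with Atf4 at a log2 fold change of 0.04, Ppp1r15a at 0.19 and Phgdh at -0.24.

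Promoters of endoplasmic reticulum chaperones are known to carry the endoplasmic reticulum stress response element (ERSE), and 5 are shown to compare members with and without it. Each line gives 150 bases up to the RefSeq start site in GRCm38.p6, 5′ to 3′ on the strand of the gene, with the ERSE in capitals. Hspa5 lies on chr2:34771940-34772089, plus strand, Hsp90b1 on chr10:86705445-86705594, minus strand, Dnajc3 on chr14:118937782-118937931, plus strand, Pdia4 on chr6:47813513-47813662, minus strand, and Sdf2l1 on chr16:17132384-17132533, minus strand.
Hspa5: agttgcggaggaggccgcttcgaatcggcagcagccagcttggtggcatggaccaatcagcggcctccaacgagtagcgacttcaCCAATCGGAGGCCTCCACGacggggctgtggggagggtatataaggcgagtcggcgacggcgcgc
Hsp90b1: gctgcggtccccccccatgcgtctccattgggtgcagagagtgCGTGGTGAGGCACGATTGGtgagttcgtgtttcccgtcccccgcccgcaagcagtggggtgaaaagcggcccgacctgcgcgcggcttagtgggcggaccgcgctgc
Dnajc3: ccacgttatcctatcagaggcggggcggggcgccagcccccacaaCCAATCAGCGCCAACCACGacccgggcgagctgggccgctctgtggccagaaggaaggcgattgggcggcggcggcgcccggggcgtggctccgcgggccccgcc
Pdia4: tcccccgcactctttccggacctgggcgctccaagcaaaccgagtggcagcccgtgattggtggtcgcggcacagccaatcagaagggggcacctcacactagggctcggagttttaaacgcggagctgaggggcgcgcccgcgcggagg
Sdf2l1: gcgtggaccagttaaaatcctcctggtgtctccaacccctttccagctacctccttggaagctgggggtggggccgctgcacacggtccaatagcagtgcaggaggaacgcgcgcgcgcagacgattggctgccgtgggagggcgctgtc
The ERSE was searched on both strands of the 300 bases as CCAAT and CCACG with 9 bases of any kind between them, and on the line of Hsp90b1 it reads in reverse. Hsp90b1 holds another match in the forward direction, at positions -212 to -194 from the start site, outside the bases shown. It was found in 7 of the 16 members with a RefSeq promoter, which were Calr, Canx, Creld2, Dnajc3, Hsp90b1, Hspa5 and Pdia6, and in 0.158% of the promoters of tested genes. The 7 members with the element had log2 fold changes of 0.11 to 0.40 with a median of 0.18, and the 9 without it had 0.0055 to 1.08, also with a median of 0.18. Pdia4 and Sdf2l1, the members with the lowest p, did not hold it in this window. Hsp90b1, the endoplasmic HSP90, was at 387, 401 and 387 CPM in control mice and at 421, 459 and 496 CPM in MPTP mice, with no overlap (log2 fold change 0.23, unadjusted p = 0.0283).

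Cytosolic heat shock chaperones had 0 of 20 past the threshold, 4 higher and 0 lower at an unadjusted p under 0.05 (3.36% and 2.67% of all genes), 18 of 20 above 0 (49.6% of all genes) and a median log2 fold change of 0.12. Hspa1b, the stress-inducible HSP70, was at 14.2, 10.3 and 13.02 CPM in control mice and at 19.0, 18.4 and 24.9 CPM in MPTP mice (log2 fold change 0.73, edgeR adjusted p = 0.769). It shares most of its sequence with Hspa1a, so reads may be split between them. Chordc1, an HSP90 co-chaperone, was at 112, 116 and 114 CPM against 134, 128 and 147 CPM, also without overlap. Hsp90ab1, the member with the highest FPKM, had a log2 fold change of 0.0074.

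**Figure D4:**
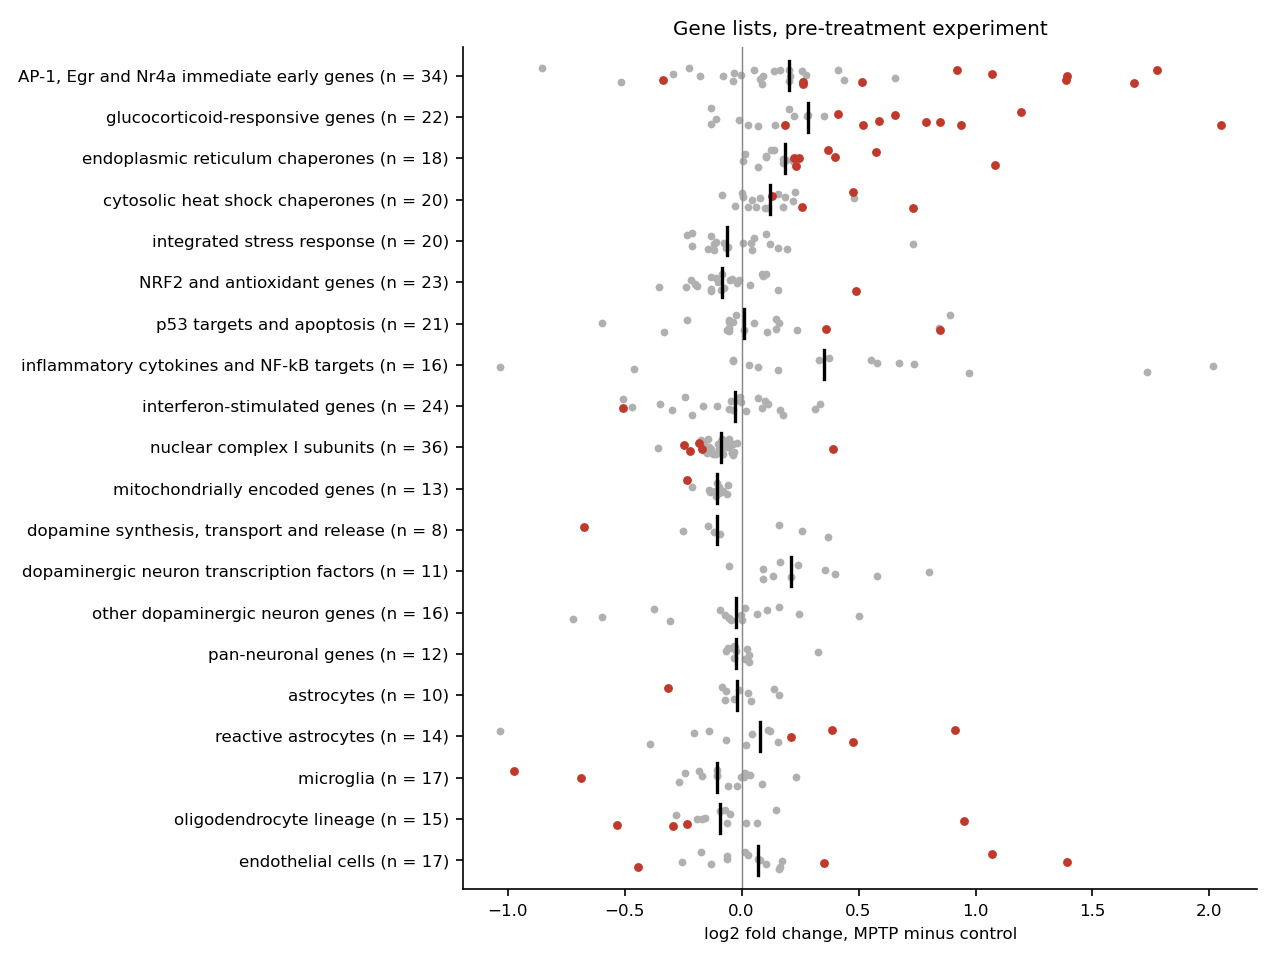
Log2 fold change of MPTP minus control for every tested member of 20 gene lists; red points have an unadjusted p under 0.05 and black bars mark each list's median. The medians lie between -0.11 (mitochondrially encoded genes) and 0.35 (inflammatory genes), and the 18 endoplasmic reticulum chaperones all lie right of 0.

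Complex I is the enzyme that MPP+ blocks. Of 36 tested nuclear subunit genes, none passed, 4 were lower and 1 was higher at an unadjusted p under 0.05 (2.67% and 3.36% of all genes), and 35 of 36 had a log2 fold change below 0, with a median of -0.09. Ndufb9, an accessory subunit and the member with the highest FPKM, was at 123, 136 and 137 CPM in control mice and at 119, 113 and 117 CPM in MPTP mice (log2 fold change -0.18, edgeR adjusted p = 0.819). Ndufs3, a core subunit, was at 80.8, 81.9 and 82.9 CPM against 72.3, 75.2 and 71.3 CPM, and was named after its values were seen. The MPTP mice lay below the control mice in both genes. Ndufb5 was the exception, with 87.4, 96.0 and 98.8 CPM in control mice and 127, 126 and 118 CPM in MPTP mice (log2 fold change 0.39, edgeR adjusted p = 0.362). Its exons overlap those of Mrpl47 on the other strand. As a whole, the median member of the list stood at log2 differences of -0.09, -0.09 and -0.11 from the control mean in the 3 MPTP mice and at -0.08, 0.03 and 0.06 in the 3 control mice, so that control mouse 1 lay close to the MPTP mice. In the mice with irisin before MPTP it stood at -0.12, -0.07 and -0.12.

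The 13 genes encoded by mitochondrial DNA were all below 0, with 0 past the threshold, 1 lower at an unadjusted p under 0.05 and a median log2 fold change of -0.11. These genes lie on 2 shared precursor transcripts and are not independent of each other. The member with the lowest p was mt-Nd6, a complex I subunit and the only gene of the light strand in the list, with 2040, 2720 and 2522 CPM in control mice and 2169, 1973 and 2060 CPM in MPTP mice. mt-Atp6 had a log2 fold change of -0.21, and mt-Co1, the member with the highest FPKM, one of -0.06. The groups overlapped in all 13 genes. Mitochondrial genes took 10.6 to 12.9% of all counts in control mice and 10.8 to 11.4% in MPTP mice. With MPTP first, the 13 genes were all below 0 as well, with a median of -0.31. Of 20 genes of mitochondrial biogenesis and dynamics, 2 were higher and 0 were lower at an unadjusted p under 0.05, which were Gabpa (log2 fold change 0.23), a subunit of the nuclear respiratory factor NRF-2, and Nrf1 (0.70).

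Dopaminergic neuron genes did not pass the threshold in this comparison. Slc6a3, the dopamine transporter that lets MPP+ in, was at 58.9, 106 and 105 CPM in control mice and at 51.3, 65.5 and 52.1 CPM in MPTP mice. Control mouse 1 was low and lay among the MPTP mice, so the groups overlapped (log2 fold change -0.68, standard error 0.23, edgeR adjusted p = 0.818). Slc6a3 alone of 8 dopamine synthesis, transport and release genes had an unadjusted p under 0.05 (edgeR p = 0.0184, exact permutation p = 0.2). The permutation was two-sided, on the mean CPM. With 3 mice against 3, an exact permutation p cannot go below 0.1. Th, tyrosine hydroxylase, was at 34.3, 50.1 and 55.1 CPM against 34.2, 51.6 and 31.5 CPM (log2 fold change -0.25, standard error 0.26; exact permutation p = 0.4). Ddc, which makes dopamine and serotonin from their precursors, was at 56.1, 73.7 and 103 CPM against 54.6, 143 and 62.4 CPM. Slc18a2, the vesicular monoamine transporter, was at 68.1, 88.5 and 117 CPM against 77.1, 170 and 81.0 CPM. In Ddc and Slc18a2, MPTP mouse 2 was the highest of all mice, as it was for Tph2. Without it, all 8 genes of dopamine synthesis, transport and release had a log2 fold change below 0, with a median of -0.26, against 5 of 8 and a median of -0.11 with it. Slc6a3 then had a log2 fold change of -0.80, Th one of -0.50, Ddc one of -0.41 and Slc18a2 one of -0.21.

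The other 4 genes of that list had groups that overlapped, with log2 fold changes of 0.37 for Gch1, which makes the cofactor of tyrosine hydroxylase, -0.09 for Aldh1a1, an aldehyde dehydrogenase of ventral dopaminergic neurons, -0.15 for Drd2, the dopamine autoreceptor, and -0.12 for Slc10a4, a vesicle protein. Gch1 was at -0.03 without MPTP mouse 2. The ratio of Slc6a3 to Th, a comparison chosen after the values were seen, was 1.72, 2.11 and 1.91 in control mice and 1.503, 1.27 and 1.65 in MPTP mice, measured in CPM. It was lower in each MPTP mouse than in each control mouse, and it was 1.33, 1.07 and 1.07 after irisin and MPTP.

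Transcription factors of dopaminergic neurons had 0 of 11 members past the threshold, 0 with an unadjusted p under 0.05 and 10 of 11 above 0, with a median log2 fold change of 0.21 that was 0.03 without MPTP mouse 2. Nr4a2, which maintains these neurons, was at 15.3, 16.1 and 15.99 CPM in control mice and at 14.8, 25.4 and 12.8 CPM in MPTP mice, where again only mouse 2 was high. Foxa2, En1, En2, Foxa1, Lmx1b, Otx2 and Sox6 had log2 fold changes from -0.05 to 0.40, Lmx1a 0.36, Pitx3 0.58 and Bnc2 0.80, with Pitx3 below 1 CPM in every mouse. Without MPTP mouse 2 the log2 fold change was -0.72 for Lmx1a, -0.67 for Pitx3, -0.24 for Lmx1b and -0.19 for Nr4a2, so the direction of these genes turned. Among 16 other genes of these neurons, 0 passed and 9 were below 0. The nicotinic receptor subunit Chrna6 had a log2 fold change of -0.37 (unadjusted p = 0.051), Gucy2c, a guanylyl cyclase of midbrain dopaminergic neurons, one of -0.60, and the neuropeptide gene Cck one of -0.72. Ret, Chrnb3, Chrna4, Chrna5, Kcnj6, Sncg, Calb1, Dlk1, Ntsr1, Anxa1, Vip, Grp and Slc17a6 had log2 fold changes from -0.31 to 0.50, with groups that overlapped. Without MPTP mouse 2, Chrna5 turned from 0.50 to -0.38, and Sncg, Calb1, Dlk1, Vip and Slc17a6 turned in direction as well. Dlk1 differed widely within groups, at 13.3, 98.2 and 100.1 CPM in control mice and at 89.5, 112 and 19.9 CPM in MPTP mice. In the delayed experiment 5 of the 8 genes of dopamine synthesis, transport and release were lower at an unadjusted p under 0.05, with a median of -0.41, and 0 of these 8 passed the test of the difference between experiments. The share of all genes at that p in the delayed experiment is not given here.

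**Figure D5:**
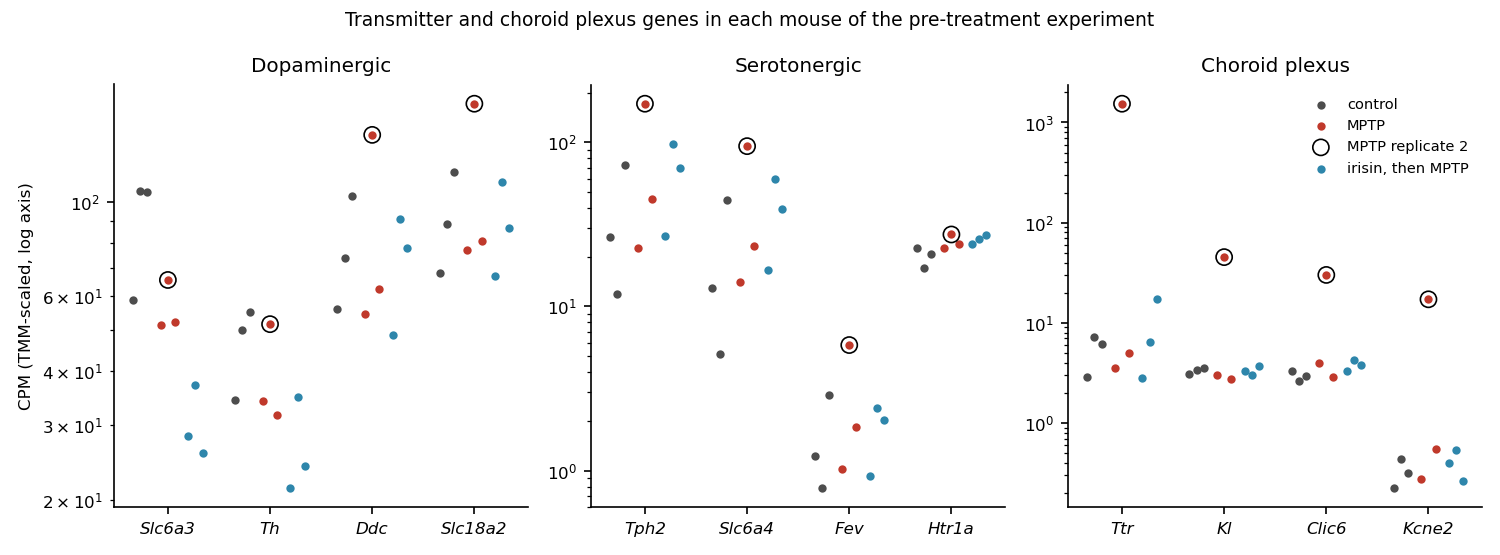
CPM on a log axis of dopaminergic, serotonergic and choroid plexus genes in each of the 9 mice of the pre-treatment experiment, with MPTP mouse 2 circled. The circled mouse is the highest for Ddc, Slc18a2, Tph2, Slc6a4 and the choroid plexus genes, and Slc6a3 is at 51.3 to 65.5 CPM in MPTP mice against 58.9 to 106 CPM in control mice.

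Enzymes and carriers that handle MPTP and dopamine were measured with 9 members, of which 0 passed and 0 had an unadjusted p under 0.05. Maob, which turns MPTP into its toxic form, was at 41.4, 35.5 and 46.4 CPM in control mice and at 46.8, 55.9 and 43.5 CPM in MPTP mice (log2 fold change 0.25). Maoa had a log2 fold change of 0.03, Aldh2 one of -0.10 and Slc29a4, a monoamine carrier, one of 0.25, which was -0.02 without MPTP mouse 2. Dbh, which makes noradrenaline, was at 12.8, 12.4 and 3.95 CPM against 14.996, 18.6 and 13.1 CPM, and Slc22a3, Slc22a2 and Aldh1a7 were low or overlapped. All 8 serotonergic genes were above 0, with Htr1a alone at an unadjusted p under 0.05 (log2 fold change 0.29), and without MPTP mouse 2 this was 4 of 8. Of 11 choroid plexus and ependymal genes, 5 were higher at an unadjusted p under 0.05 and without MPTP mouse 2 none was. Noradrenergic genes, transmitter class genes and pan-neuronal genes (5, 11 and 12 tested) had none at an unadjusted p under 0.05, with log2 fold changes of 1.81 for Phox2a, 1.12 for Slc17a8, 0.07 for Gad2, 0.33 for Map2 and -0.03 for Snap25. Slc17a8, a vesicular glutamate transporter, was at 2.71, 33.3 and 7.38 CPM in MPTP mice, and without MPTP mouse 2 its log2 fold change was -0.40. Penk (0.23) was the 1 striatal and forebrain gene of 8 at an unadjusted p under 0.05.

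Glial and vascular lists moved little as a whole. Of 17 microglial genes, 0 passed and 2 were lower at an unadjusted p under 0.05. Cx3cr1, the fractalkine receptor, was at 7.74, 7.82 and 9.42 CPM in control mice and at 4.98, 4.97 and 5.57 CPM in MPTP mice (log2 fold change -0.69, edgeR adjusted p = 0.579). Itgam, which encodes CD11b, was at 17.3, 21.4 and 9.69 CPM against 9.18, 6.99 and 8.48 CPM (log2 fold change -0.97, edgeR adjusted p = 0.786). Both were lower in every MPTP mouse than in any control mouse. The 6 microglial markers summed to 117 to 135 CPM in control mice and 110 to 127 CPM in MPTP mice. Of 14 genes of activated microglia none had an unadjusted p under 0.05, with Cd68 at -0.22 and Spp1 at 0.17, which was -0.26 without MPTP mouse 2. Cst7, a marker of activated microglia, was at 0.075, 0 and 0.058 CPM in control mice and at 0.748, 0.244 and 0.213 CPM in MPTP mice.

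Of 14 genes of reactive astrocytes, 4 were higher and 0 were lower at an unadjusted p under 0.05. Nes, which encodes the intermediate filament nestin of progenitors, reactive glia and endothelium, was at 14.8, 13.98 and 11.03 CPM in control mice and at 21.03, 24.5 and 29.5 CPM in MPTP mice, and the mice with irisin before MPTP had 8.47 to 8.89 CPM (log2 fold change 0.91, edgeR adjusted p = 0.274). Hspb1 (0.47) and Serpina3n (0.21) did not overlap either. Gfap, the filament of astrocytes, was at 214, 377 and 359 CPM against 280, 331 and 318 CPM, with overlap. Among 10 astrocyte genes, Sox9 alone had an unadjusted p under 0.05 (-0.32), beside 0.16 for Slc1a3 and -0.01 for Glul.

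The oligodendrocyte lineage had 3 of 15 members lower and 1 higher at an unadjusted p under 0.05, with 11 of 15 below 0. Sox10, its defining transcription factor, was at 58.0, 51.9 and 51.6 CPM in control mice and at 45.2, 45.0 and 41.6 CPM in MPTP mice (log2 fold change -0.29, edgeR adjusted p = 0.741). Opalin, a myelin protein of mature cells, was at 74.8, 83.1 and 73.7 CPM against 52.7, 50.3 and 57.0 CPM (log2 fold change -0.53, edgeR adjusted p = 0.762). Neither overlapped between the groups. Bcas1, a gene of newly formed oligodendrocytes, was at 276, 394 and 244 CPM against 269, 743 and 754 CPM, so that 2 MPTP mice were high and 1 was at control level. The 5 oligodendrocyte markers summed to 8135 to 12555 CPM in control mice and 7419 to 9812 CPM in MPTP mice.

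Among 17 endothelial genes, Klf4 passed, 3 including Klf4 were higher and 1 was lower at an unadjusted p under 0.05. Cldn5, the tight junction claudin of the blood-brain barrier, was at 16.2, 15.8 and 18.3 CPM in control mice and at 12.2, 13.01 and 11.8 CPM in MPTP mice (log2 fold change -0.44, edgeR adjusted p = 0.485). Slc2a1, the glucose transporter of that barrier, was at 85.5, 104 and 105 CPM against 112, 129 and 135 CPM (log2 fold change 0.35, edgeR adjusted p = 0.786). The 2 genes went in opposite directions with no overlap between the groups. Of 12 genes of mural cells and fibroblasts, Kcnj8 (0.37) was at an unadjusted p under 0.05, with Abcc9 at 0.26 and Rgs5 at -0.05. Red blood cell and pituitary genes (5 and 3 tested) had none, with Hbb-bs, a globin gene with a near-identical copy, at 0.08, Alas2 at -0.13, Lhb at 0.56 (-0.12 without MPTP mouse 2) and Pomc at -1.64, for which control mouse 2 held 7.41 CPM and the other control mice 0.865 and 0.994 CPM.

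In the remaining lists no member passed. The p53 and apoptosis list had 2 of 21 higher at an unadjusted p under 0.05, Trp53inp1 (0.36) and the cell cycle inhibitor Cdkn1a (0.85), with Mcl1 at 0.05. Of 23 NRF2 and antioxidant genes, 17 were below 0 and only Srxn1, sulfiredoxin, had an unadjusted p under 0.05, at 57.6, 60.4 and 70.8 CPM in control mice and 74.3, 90.6 and 99.9 CPM in MPTP mice, beside -0.13 for Gpx4 and -0.13 for Mt2. The clock list of 21 had Per2 higher (0.38) and Nr1d1 lower (-0.34) at that level, with Nr1d2 at 0.05. Hypoxia and glycolysis had 1 of 25 higher, Slc2a1, while Pfkfb3 was at -0.91 (unadjusted p = 0.0563) and Aldoc at -0.09. Of 16 inflammatory genes 12 were above 0 and none had an unadjusted p under 0.05, with Tnfaip3 at -0.46, Nfkbiz at 0.33 and Nfkbia at 0.07, and Il1b, Il6, Cxcl1, Ccl4 and Selp had too few counts to test. Interferon-stimulated genes had 1 of 24 lower, Gbp3 (-0.51), with Irf7 at -0.47 and B2m at -0.01. The Parkinson disease genes had 2 of 20 higher and 2 lower, among them Dnajc13 (0.27) and Pink1, the kinase of mitophagy, at 445, 454 and 442 CPM in control mice and 398, 398 and 403 CPM in MPTP mice (log2 fold change -0.16, unadjusted p = 0.00736), with Uchl1 at -0.04. Neurotrophic factors and receptors had 1 of 21 higher, Ntrk3 (0.19), with Manf at 0.19 and Fndc5, the precursor of irisin, at -0.03. FAK, Akt and ERK signaling had 1 of 26 higher, Dusp6 (0.51), with Pik3ca at 0.48. Cholesterol synthesis had 1 of 22 lower at an unadjusted p under 0.05, with Fdft1 at 0.38 (0.07 without MPTP mouse 2) and Hmgcs1 at -0.08. Without MPTP mouse 2 the unadjusted p was above 0.05, in the same direction, for Arc, Hsp90b1, Dnajc3, Ndufb9, mt-Nd6, Nrf1, Htr1a, Penk, Bcas1, Kcnj8, Trp53inp1, Cdkn1a, Nr1d1 and Dnajc13, from 0.0567 for Ndufb9 to 0.167 for Penk.

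The study also assayed a set of proteins in midbrain tissue, and the RNA of their genes was looked up here. Of these 22 genes, 0 passed and 1, Gabpa, had an unadjusted p under 0.05. Their log2 fold changes lay between -0.25 for Th and 0.43 for Mfn2, a mitofusin at 213, 114 and 105 CPM in control mice and 198, 198 and 188 CPM in MPTP mice. Bdnf was at 19.2, 14.6 and 11.9 CPM against 18.6, 12.6 and 17.2 CPM, and Tubb3 at 323, 330 and 346 CPM against 316, 368 and 327 CPM. The apoptosis genes Bcl2 and Bax had log2 fold changes of 0.15 and -0.02, Aif1 and Olig2, markers of microglia and oligodendrocytes, 0.04 and 0.07, and the mitochondrial genes Ppargc1a, Nfe2l2, Sirt3, Tomm20, Dnm1l, Opa1 and Mfn1 between -0.19 and 0.09. Ptk2 (-0.01), Akt1 (-0.01) and Mapk3 (-0.08) belong to the FAK, Akt and ERK pathways. Except for Gabpa, the groups overlapped in each of these 22 genes.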

How the data were processed

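Total RNA of midbrain tissue was sequenced in 21 samples, of which the 9 of the pre-treatment experiment and the 12 of the delayed experiment are used. The authors deposited, for each experiment, raw read counts per gene, made with featureCounts by the study's methods, and FPKM values, which the authors derived from the counts by gene length and library size. The submitters' processing notes name HISAT, StringTie, edgeR and mm9, while all 33829 gene identifiers of the pre-treatment table are in GENCODE M21, with 91.9% at identical GRCm38 coordinates. Samples were grouped by their titles.

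Counts were filtered with filterByExpr (least count 10, least total 15), scaled by TMM and fitted with edgeR 4.0.16 (quasi-likelihood test, R 4.3.3) over all groups of an experiment (3 in the pre-treatment, 4 in the delayed one), with 6 residual degrees of freedom in the pre-treatment fit, and Benjamini-Hochberg adjustment over all genes tested. Unadjusted p-values are from the same fits. The test was checked on simulated counts. The difference between experiments was fitted on genes present in both tables. limma 3.58.1 and DESeq2 1.42.0 served as alternatives, with scaling, filters, a replicate block and leaving out each mouse. Single-gene exact tests used scipy 1.17.1. FPKM served only for ranking within lists, a filter and the limma alternative, with a pseudocount of 1.

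Gene lists and members were chosen with earlier results of these data known. Genes named were those past the threshold (filled to 5 per direction by the lowest p without overlap), all dopaminergic and MPTP conversion genes, in each other list those past the threshold or the 2 with the lowest p, plus the highest FPKM, genes whose proteins the study measured, and the largest differences between experiments. Some results, among them 1 gene past the threshold, are not reported here. Further list members were named after their values were seen. No 2 mice of a group had counts within sampling noise, with a chi-square per gene of at least 51.8 in the pre-treatment and 39.7 in the delayed experiment.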

Additional observations from a re-analysis of the deposited data

Results flagged for a closer look

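The effect of MPTP differed between the pre-treatment and the delayed experiment by a test of the difference itself (the quasi-likelihood test of edgeR, adjusted by Benjamini-Hochberg) in the following genes of largest difference or of the named lists. Values are the log2 fold change in the pre-treatment experiment minus that in the delayed one.

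Among early response genes the difference was 3.93 for Apold1 (adjusted p = 0.000819), 1.598 for Klf2 (adjusted p = 0.00423), 4.005 for Ccn1 (adjusted p = 0.0103), 2.02 for Btg2 (adjusted p = 0.0136) and 1.75 for Klf4 (adjusted p = 0.0345), all from edgeR's test. Btg2, an antiproliferative early gene, was at 15.4, 16.04 and 17.9 CPM in control mice and 20.4, 19.0 and 14.8 CPM in MPTP mice of the pre-treatment experiment, and at 34.4, 26.5 and 60.2 CPM against 11.1, 11.2 and 10.4 CPM in the delayed one.

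The remaining genes are those with the largest differences. The difference was -10.06 for Gm10591 (adjusted p = 6.38e-05), -8.66 for Gm12576 (adjusted p = 0.00298), -7.54 for Gm4117 (adjusted p = 0.0258), 6.76 for Gm45224 (adjusted p = 0.0258) and -7.64 for 1010001B22Rik (adjusted p = 0.029), all from edgeR's test. Gm10591, Gm12576, Gm4117 and 1010001B22Rik had 0 counts in every control mouse of the delayed experiment, so their fitted values depend on the prior count and are no bound. The calls of Gm10591 and Gm12576 held whichever of 12 mice was left out, while those of Gm4117, Gm45224 and 1010001B22Rik held in 6, 4 and 3 of these 12 fits. Gm10591 has near-identical copies among which reads may be split. Its gene length implied by counts and FPKM also differed between the experiments, with a log2 ratio of -1.11, and what this did to the difference was not tested.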

How the results depend on the processing

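The 5 calls of the pre-treatment experiment numbered 5 to 6 under median-ratio or upper-quartile scaling, no filter, a mean FPKM of at least 1, limma on FPKM, limma-voom and a least fold of 1.5, and Isca1, Snrnp35, Klf4 and Mxd4 passed under each of these. DESeq2 gave 91 calls, a fit of only the 2 compared groups 10, and an unadjusted p under 0.05 1365. Leaving out 1 mouse gave 4 to 17 calls. The count moved by over 1.5 times without control mouse 1 (12), 2 (14) or 3 (9), MPTP mouse 2 (17) or 3 (9), or mouse 1 (9) or 2 (10) of irisin and MPTP. Isca1 and Snrnp35 kept their calls in all 9 of these fits. In the delayed experiment DESeq2 gave 178 calls in place of 29. For the difference between experiments DESeq2 gave 85 in place of 24, and leaving out 1 mouse gave 13 to 33, with 15 without MPTP mouse 2 and 13 without MPTP mouse 3 of the delayed experiment. The cause of these changes was not tested.

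A fit with the replicate block gave 2 calls for pre-treatment mice and 17 for mice of the delayed experiment. With the block Isca1 kept its call (edgeR adjusted p = 0.0441), while Snrnp35 (0.0673), Klf4 (0.161) and Mxd4 (0.287) lost theirs. Deviations of control and MPTP mice of the same number correlated at 0.10, 0.07 and -0.01, beside -0.09 to 0.02 for different numbers. What samples of the same number shared beyond it was not tested.

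Among 2926 values of single named genes over all alternatives, 124 (67 genes) changed sign, 0 of them of genes past the threshold and 30 without MPTP mouse 2, while 12 lost and 19 gained a call. Precision was limited by 3 mice per group.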

Other observations

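Further genes with a low p that belong to no list were named after their values were seen, and none passed the adjusted threshold. Kif22, a mitotic kinesin, was at 3.30, 3.22 and 3.44 CPM in control mice, 5.53, 5.96 and 5.93 CPM in MPTP mice, and 6.77 to 7.83 CPM in mice given irisin before MPTP. Alkbh8, a transfer RNA methyltransferase, was at 13.9, 11.6 and 6.54 CPM against 40.3, 47.5 and 30.0 CPM. Mertk, a receptor kinase of phagocytosis, was at 19.6, 20.8 and 23.1 CPM against 30.1, 29.9 and 33.8 CPM, with 42.4 to 51.0 CPM after irisin and MPTP. Slc40a1, the iron exporter ferroportin, was lower, at 12.7, 17.6 and 13.9 CPM against 8.30, 7.29 and 9.43 CPM. Id1, an inhibitor of basic helix-loop-helix factors, was at 7.68, 8.31 and 7.36 CPM against 13.5, 14.7 and 12.1 CPM, with 7.04 to 8.95 CPM after irisin and MPTP. In each of these genes the MPTP and control mice did not overlap, as in 5.71% of all genes for the higher and 5.93% for the lower direction.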
